A study of Mus musculus with 8 samples.

Results

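The cytochrome P450 genes were compared between fetal ductus arteriosus and fetal aorta in the mouse. A gene was a member when its probe set carried exactly 1 symbol of the form Cyp, number, letter, number. This gave 71 of the 18193 genes on the array, after 1 P450 gene was set aside by the selection rule and 4 P450 probe sets with several symbols were left out. Por, the reductase that also belonged to the selection, was not named in the annotation used and was not analysed here. Where a gene had more than 1 probe set, the one with the highest average signal stood for it. Of the members, 18 had several probe sets and 53 had a single one, and 1 (Cyp4f41-ps) is a pseudogene. The representative probe sets of 7 members have a suffix that marks probes shared with other transcripts, of the same gene or of others. Close relatives within a subfamily may not be fully separated, above all for Cyp2c23, Cyp2c65, Cyp4v3 and Cyp7b1, whose probe sets end in _s_at.

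Total RNA was hybridised to 8 Affymetrix arrays, 4 of ductus arteriosus and 4 of aorta. All mice were wild type of the strain labelled CD88, untreated, and sampled on day 19 of gestation. Each array held the pooled vessel segments of up to 10 pups of 1 pregnant female, so that the replicates were litter pools and not single animals. Before birth the ductus arteriosus lets blood bypass the lungs, from the pulmonary artery into the aorta, and it shuts in the newborn. Per the labels the other vessel was only "Aortic tissue", with no segment of the aorta or layer of the wall named.

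P450 enzymes are haem monooxygenases that insert oxygen into lipids, steroids, vitamins and foreign compounds. Those of the endoplasmic reticulum take electrons from the reductase encoded by Por, and those of mitochondria from ferredoxin. In the ductus, an enzyme of the CYP3A subfamily (Cyp3a13 in the mouse) has been proposed as an oxygen sensor that acts through endothelin, and P450 inhibitors such as cimetidine relax the vessel in experiments.

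Values are deposited log2 signals, with array medians of 4.36 to 4.42 and first quartiles of 2.74 to 2.86. Differences are ductus minus aorta, fitted with limma across the 18193 genes, with calls made at a Benjamini-Hochberg adjusted p under 0.05. Levels carry the SD over 4 arrays, and differences carry the standard error of the fit. Correlations between arrays of the same tissue were 0.986 to 0.992. Smooth muscle markers averaged 9.60 to 10.13 in the ductus and 8.79 to 9.34 in the aorta, so both tissues carried the defining genes of a vessel wall. In tissue pieces, fewer cells of a type and less RNA per cell cannot be told apart.

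Of the 71 P450 genes, 1 was higher in the ductus (Cyp1b1) and 1 was lower (Cyp2s1). The 2 called members make up 2.82%, against 3.86% of all genes tested. Among all genes, 1.8% were called higher and 2.06% lower in the ductus. At an unadjusted p under 0.05 there were 8 members (11.3%), against 16.1% of all genes. The median difference was -0.02 over the members and -0.03 over all genes, with 30 members above 0 and 41 below. Only Cyp1b1 and Cyp2s1 differed by 1 or more on the log2 scale, and 64 members differed by less than 0.5. In the ductus every value lay above every aorta value for 4 members (Cyp1b1, Cyp20a1, Cyp2r1 and Cyp26a1), where the share of all genes was 5.23%. It lay below for 4 others (Cyp2s1, Cyp4v3, Cyp1a2 and Cyp2g1), where the share was 6.06%. Together these 8 are 11.3% of the members, the same as the 11.3% of all genes.

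**Figure D1:**
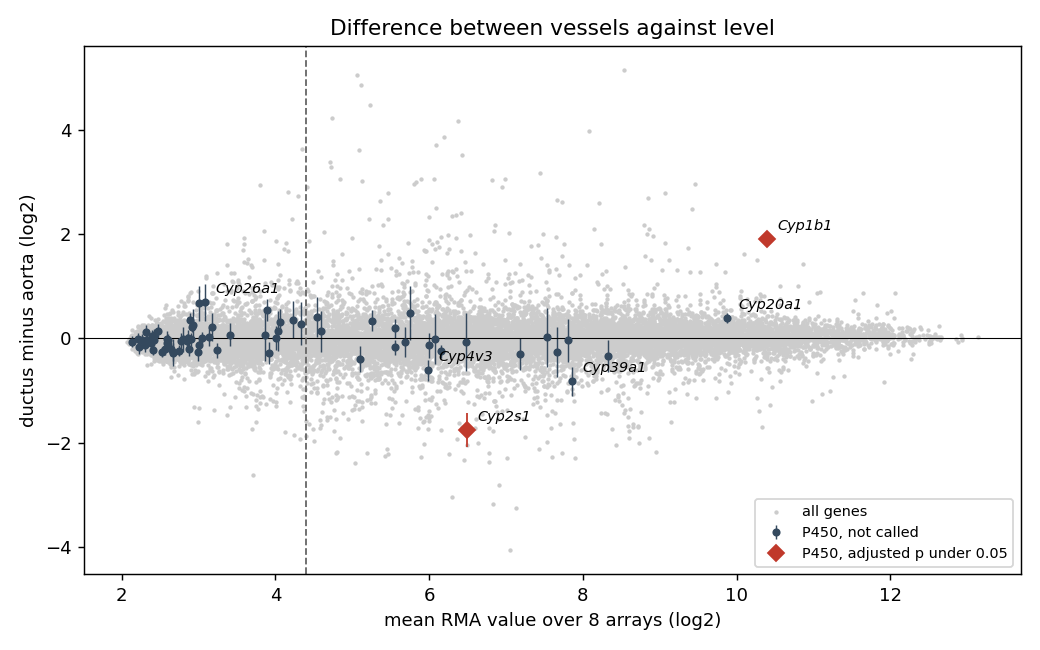
Mean log2 signal over 8 arrays on the horizontal axis and log2 difference, ductus minus aorta, on the vertical axis, for all genes (grey) and the 71 P450 genes with the standard error of the difference. The dashed line is the median of all values, and the called genes Cyp1b1 at 1.91 and Cyp2s1 at -1.75 (red diamonds) stand apart from the other P450 genes.

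The median of all values on the arrays was 4.39, and 22 of the 71 members (31.0%) had a mean above it, against 11071 of the 18193 genes (60.9%). In descending order these were Cyp1b1, Cyp20a1, Cyp2c68, Cyp39a1, Cyp2c23, Cyp4a14, Cyp2e1, Cyp2c70, Cyp2s1, Cyp3a11, Cyp4f16, Cyp2d26, Cyp2d22, Cyp4v3, Cyp3a25, Cyp2d10, Cyp21a1, Cyp2j6, Cyp7b1, Cyp27a1, Cyp7a1 and Cyp4b1. Signals of different probe sets are not a measure of relative mRNA amount, so this order describes signals only. Some of these genes have other, weaker probe sets below the median. Those of Cyp21a1 (mean 2.66), Cyp7a1 (2.67) and Cyp27a1 (2.40) lay under every first quartile. Those of Cyp4f16 (3.59), Cyp2j6 (4.26) and Cyp7b1 (3.55 and 2.18) were below the median, as was the weakest of Cyp1b1 (3.27). At the border, Cyp4b1 averaged 4.54 and lay just inside, and Cyp3a16 averaged 4.33 and lay just outside. Above the median on all 8 arrays were 20 members, on some arrays 9, and on none 42. Below the median, 22 members had a mean under the first quartile of every array and 27 lay between. The files used hold no detection call, so these 49 members are reported as low signals and not as absent transcripts. Among them 0 were called, and the largest absolute difference was 0.69.

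By family, the signals above the median were spread unevenly. In CYP2, the largest family, 9 of 35 genes were above it, including 3 of 11 Cyp2c genes, 3 of 8 Cyp2d genes, 1 of 5 Cyp2j genes and 0 of 4 Cyp2b genes. In CYP4 there were 4 of 13, with 1 of 7 Cyp4f genes and 1 of 3 Cyp4a genes. In CYP3, 2 of 5 were above, in CYP1 1 of 3, in CYP7 both genes, in CYP27 1 of 2 and in CYP11 0 of 3. Members lie on 13 chromosomes, and the Cyp2c genes on chromosome 19, the Cyp2d genes on chromosome 15 and the Cyp3a genes on chromosome 5 each form a family of close relatives on 1 chromosome.

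**Figure D2:**
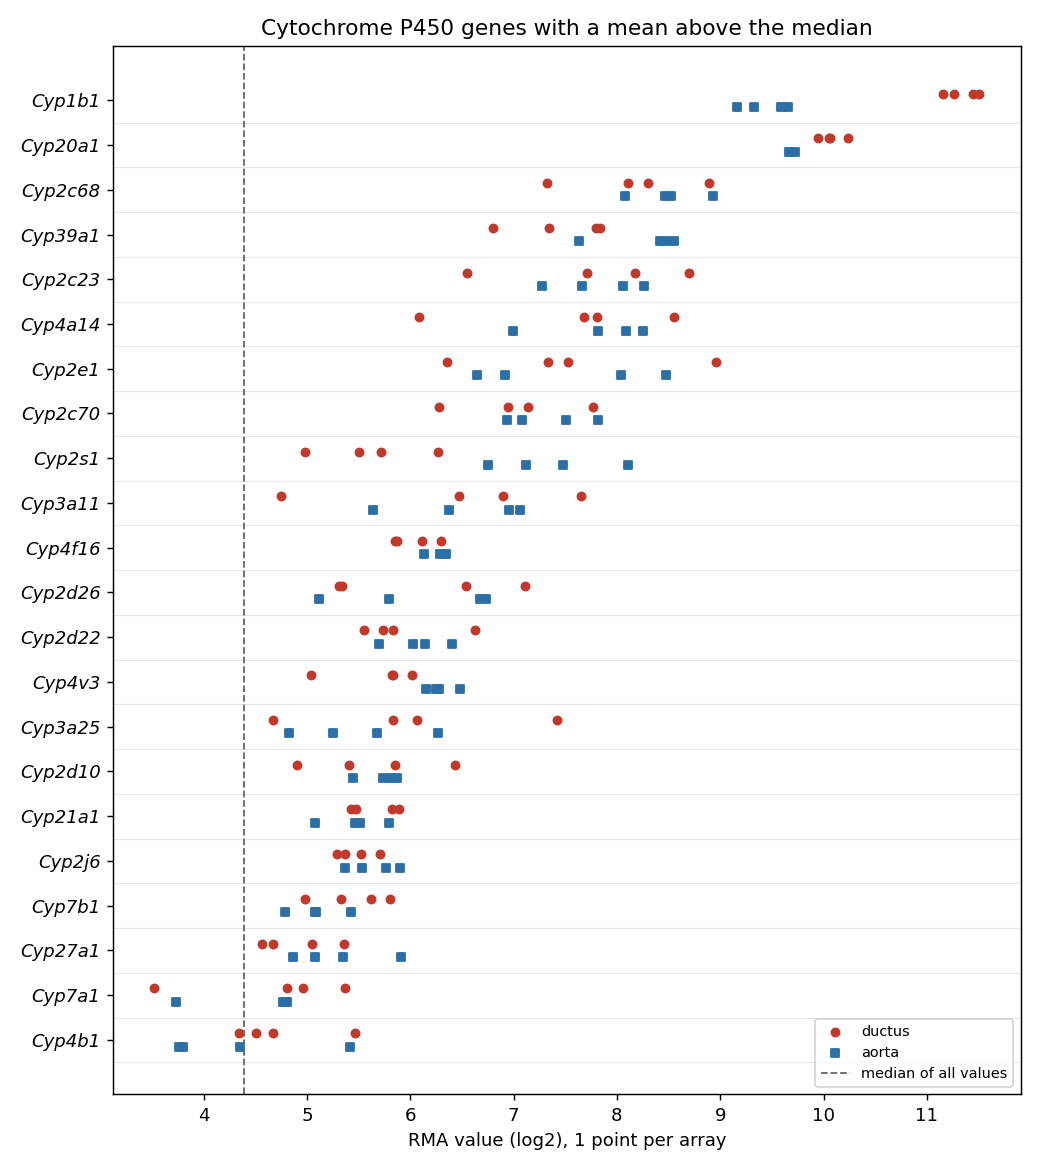
Log2 signal (horizontal axis) of the 22 P450 genes with a mean above the median of all values (dashed line), one row per gene in descending order and one point per array, circles for the ductus and squares for the aorta. The tissues separate widely in Cyp1b1 and Cyp2s1 and overlap in most other rows.

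Cyp1b1 encodes an extrahepatic P450 that oxidises steroids, retinoids and polycyclic hydrocarbons and is induced through the aryl hydrocarbon receptor. Its signal was 11.15, 11.26, 11.51 and 11.45 on the ductus arrays and 9.66, 9.59, 9.33 and 9.16 on the aorta arrays. The lowest ductus pool was above the highest aorta pool, and the pools within a tissue lay close together. The means were 11.34 ± 0.163 in the ductus and 9.43 ± 0.232 in aorta pools (SD, n = 4 each). The difference was 1.91 ± 0.142, a 3.75-fold higher signal in the ductus (limma adjusted p = 0.000105). A second probe set gave 8.44, 8.55, 8.56 and 8.90 in the ductus and 5.72, 6.21, 5.87 and 5.38 in the aorta, a difference of 2.82 ± 0.181 (limma adjusted p = 4.63e-05 over probe sets). The remaining probe set, with a mean of 3.27 near the low end of the signal range, differed by 0.39 ± 0.176 and did not pass (adjusted p = 0.340). Smooth muscle and airway markers also had genes called higher in the ductus (3 of 8 in each list), and the others of both lists were not called. The part of these or other cell types in the Cyp1b1 difference was not tested.

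The sequence around the start of Cyp1b1 is shown because the binding core of the aryl hydrocarbon receptor, GCGTG, was searched there. The window covers 250 bases before to 50 bases after the annotated start (RefSeq, GRCm38.p6, chr17:79715012-79715311, minus strand, 5′ to 3′). Capitals mark the 1 match, which is on the other strand and so reads CACGC.
Cyp1b1: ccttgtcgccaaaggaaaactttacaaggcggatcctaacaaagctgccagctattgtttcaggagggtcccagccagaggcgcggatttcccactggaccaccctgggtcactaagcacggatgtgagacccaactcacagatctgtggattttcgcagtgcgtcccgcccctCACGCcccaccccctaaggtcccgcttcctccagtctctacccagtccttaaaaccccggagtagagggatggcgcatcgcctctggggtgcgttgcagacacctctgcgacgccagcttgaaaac
This core, counted on both strands, was in 32.4% of all 32851 promoter windows of this length. It was in 14 of the 57 windows of members, which belong to 13 of the 50 members with a window (26%). The window of Cyp2s1 held no match. These matches describe letters and not binding.

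The other CYP1 members, also induced by dioxin, were at the low end of the signal range. Cyp1a1, the classical receptor target of the liver and lung, averaged 2.42 ± 0.116 in the ductus and 2.38 ± 0.188 in the aorta, a difference of 0.04 ± 0.123. Cyp1a2, its neighbour in the genome, averaged 2.39 ± 0.070 in the ductus and 2.65 ± 0.085 in the aorta without overlap (adjusted p = 0.218), and both means lay below the first quartile of every array. Of 7 measured genes of the aryl hydrocarbon receptor pathway, 0 were called. The receptor Ahr averaged 6.92 in the ductus and 6.93 in the aorta. Nqo1, a quinone reductase induced by the receptor, differed by -0.36 ± 0.114 (adjusted p = 0.140), and Arnt2, a dimer partner of basic helix-loop-helix PAS factors, by -0.78 ± 0.279 (adjusted p = 0.192).

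Cyp2s1 encodes a P450 of epithelia outside the liver that has been found to be dioxin-inducible. Its signal was 5.71, 4.98, 6.27 and 5.50 on the ductus arrays and 8.11, 7.12, 6.76 and 7.48 on the aorta arrays. Every ductus pool was below every aorta pool, though the spread within each tissue was wide. The means were 5.61 ± 0.534 in the ductus and 7.36 ± 0.578 in the aorta, a difference of -1.75 ± 0.325, and the ratio of aorta to ductus was 3.37 (limma adjusted p = 0.0167). The call was lost without ductus replicate 4 (adjusted p = 0.0559) or aorta replicate 4 (adjusted p = 0.0509), and without ductus replicates 2 and 3 together (adjusted p = 0.0576), while the difference stayed between -1.97 and -1.50 in all alternatives run. Markers of mesothelium, the epithelium that covers the organs of the chest, moved in the same direction. Their mean was 6.92, 6.45, 6.85 and 6.29 in the ductus and 9.01, 8.13, 7.62 and 8.59 in the aorta, with 6 of 8 called lower in the ductus. From highest to lowest, the aorta pools ran 1, 4, 2, 3 by Cyp2s1 and by this mean, whereas the ductus pools ran 3, 1, 4, 2 by Cyp2s1 and 1, 3, 2, 4 by the mean. Endothelial markers averaged 7.60 to 7.82 in the ductus and 8.20 to 8.58 in the aorta, with 3 of 8 called lower in the ductus. By the endothelial mean the ductus pools ran 3, 1, 4, 2, as by Cyp2s1, and the aorta pools 1, 2, 4, 3. Hepatocyte, smooth muscle, airway and skeletal muscle marker means also ran 3, 1, 4, 2 in the ductus. None of them had the Cyp2s1 order in the aorta. Unlike Cyp2s1, airway marker means were higher in the ductus (5.42 to 6.32) than in the aorta (3.73 to 4.95), as were smooth muscle means. The part of any of these cell types in the Cyp2s1 difference was not tested.

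**Figure D3:**
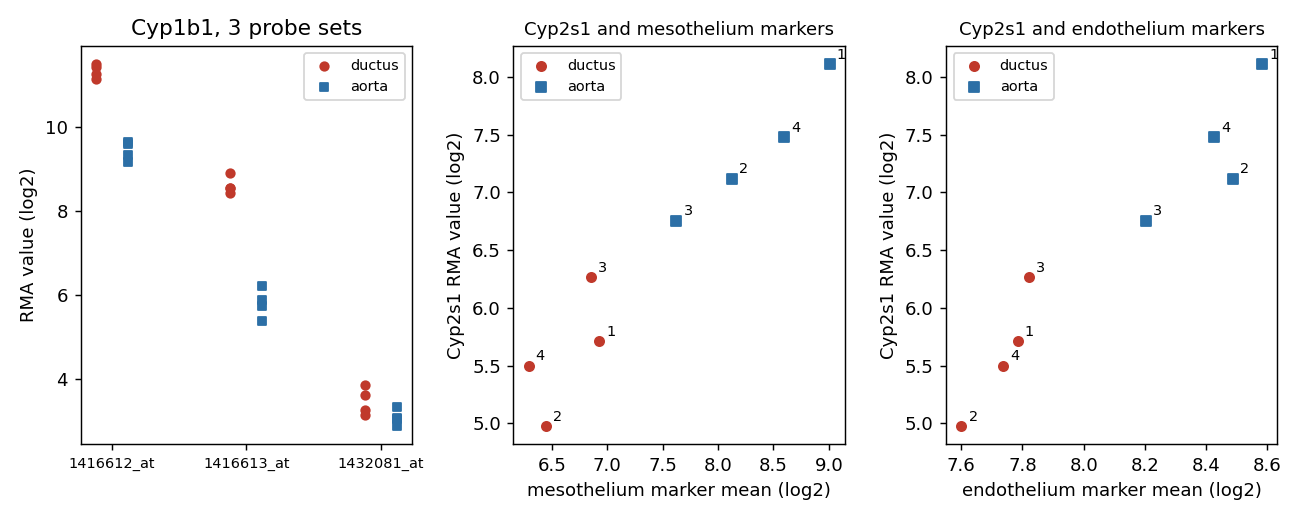
Left, log2 signal of the 3 Cyp1b1 probe sets, one point per litter pool, circles for the ductus and squares for the aorta. Middle and right, the Cyp2s1 log2 signal (vertical axis) against the mean log2 signal of mesothelial and of endothelial markers (horizontal axes), with pools numbered. Ductus pools lie low on both axes, with mesothelial means up to 6.92, and aorta pools lie high, from 7.62 on.

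Epoxide hydrolases, which open the epoxides that P450 enzymes make from fatty acids and foreign compounds, gave 1 call among 4 measured genes. Ephx1, the microsomal enzyme, had 7.31, 7.06, 7.54 and 7.22 in the ductus and 7.98, 8.36, 7.96 and 8.13 in the aorta. It was lower in the ductus by -0.82 ± 0.138 without overlap (adjusted p = 0.0103, aorta-to-ductus ratio 1.77). The call was lost without ductus replicates 2 and 3 together (adjusted p = 0.0565). Ephx2, the soluble enzyme that hydrolyses arachidonate epoxides, averaged 9.26 ± 0.302 in the ductus and 9.85 ± 0.113 in aorta pools and did not pass (adjusted p = 0.0755). The endothelial and mesothelial marker means given for Cyp2s1 were likewise lower in the ductus. In the ductus both genes had the pool order of Cyp2s1, as did the endothelial mean but not the mesothelial mean. Hepatocyte, smooth muscle, airway and skeletal muscle means had that ductus order too. Within the aorta both genes and the hepatocyte mean were highest in pool 2, and the endothelial and mesothelial means in pool 1. The part of any of these cell types in the 2 genes was not tested.

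Cyp2e1, Cyp3a11 and Cyp3a25, which metabolise solvents or drugs, had signals above the median and did not pass the test between tissues. Cyp2e1, which oxidises ethanol and small solvents, had 7.52, 6.35, 8.96 and 7.33 in the ductus and 6.64, 8.48, 6.92 and 8.04 in the aorta. The pools within each tissue differed more than the tissues did, and the difference was 0.02 ± 0.560 (adjusted p = 0.991). Cyp3a11, the main drug-metabolising CYP3A enzyme of adult mouse liver, had 6.90, 4.75, 7.65 and 6.47 in the ductus and 5.64, 7.06, 6.37 and 6.96 in the aorta. Its difference was -0.06 ± 0.562. Cyp3a25, of the same subfamily, had 6.07, 4.67, 7.41 and 5.84 in the ductus and 4.83, 6.27, 5.25 and 5.68 in the aorta, with a difference of 0.49 ± 0.518 (adjusted p = 0.716). In all 3 genes ductus pool 2 was the lowest and ductus pool 3 the highest of the 8 arrays.

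The 3 Cyp2c genes above the median, of a subfamily that includes epoxygenases of arachidonic acid, did not pass the test either. Cyp2c23 had 8.18, 6.55, 8.69 and 7.71 in the ductus and 7.28, 8.06, 7.67 and 8.27 in aorta pools (difference -0.03 ± 0.413). Cyp2c68 had 8.10, 7.32, 8.89 and 8.30 in the ductus and 8.08, 8.93, 8.47 and 8.52 in aorta pools (-0.34 ± 0.305). Cyp2c70, which in mice forms muricholic bile acids, had 7.14, 6.27, 7.77 and 6.95 in the ductus and 7.08, 7.50, 6.94 and 7.82 in aorta pools (-0.30 ± 0.305). In each of these 3 genes ductus pool 2 was the lowest of the 8 arrays, and the tissues overlapped. Among the Cyp2d genes, Cyp2d26 had 6.54, 5.34, 7.11 and 5.31 in the ductus and 5.11, 6.67, 5.80 and 6.73 in the aorta. Cyp2d22 had 5.83, 5.74, 6.63 and 5.55 in the ductus and 6.40, 6.14, 5.70 and 6.02 in aorta pools, and Cyp2d10 averaged 5.65 ± 0.650 in the ductus and 5.71 ± 0.189 in aorta pools. Their differences lay between -0.13 and -0.01. Cyp2j6, of a subfamily that includes arachidonate epoxygenases, averaged 5.47 ± 0.186 in the ductus and 5.64 ± 0.238 in the aorta.

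Hepatocyte markers were strong on every array. The mean of the 7 measured markers, with albumin among them, was 11.26, 10.39, 11.68 and 11.04 in the ductus and 10.91, 11.43, 11.12 and 11.40 in aorta pools, and 0 were called between tissues. It was lowest on ductus array 2 and highest on ductus array 3, as were 6 of the 7 markers singly. No other cell type marker mean had both extremes there, but the macrophage markers Csf1r and Lyz2 did singly. So did the means of the electron donor and haem genes, the nuclear receptors and the P450 genes outside the selection. Endothelial, macrophage and adrenal cortex means were also lowest on ductus array 2. Smooth muscle, airway and skeletal muscle means were also highest on ductus array 3. Of the 22 members above the median, 14 were lowest on ductus array 2 and 12 were highest on ductus array 3. Both held for 7 (31.8%), namely Cyp2c23, Cyp4a14, Cyp2e1, Cyp3a11, Cyp3a25, Cyp2d10 and Cyp7a1, and for 441 of the 11071 genes above the median (3.98%). Over all members both held for 13 (18.3%), against 548 of all 18193 genes (3.01%). These shares are descriptions with no test, and members of a subfamily are not independent of each other. The part of liver RNA in the signals of these P450 genes was not tested. The marker mean was also used as a covariate, an alternative added after seeing the data. Cyp3a25 then passed, at 0.74 ± 0.158 (limma adjusted p = 0.0350), and the other 6 did not. Without the covariate it was 0.49 ± 0.518 (limma adjusted p = 0.716). These 7 genes were picked for sharing their extremes with this mean, so smaller standard errors under the covariate follow from the choice. The Cyp3a25 call under it is therefore no independent evidence of a difference between tissues.

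**Figure D4:**
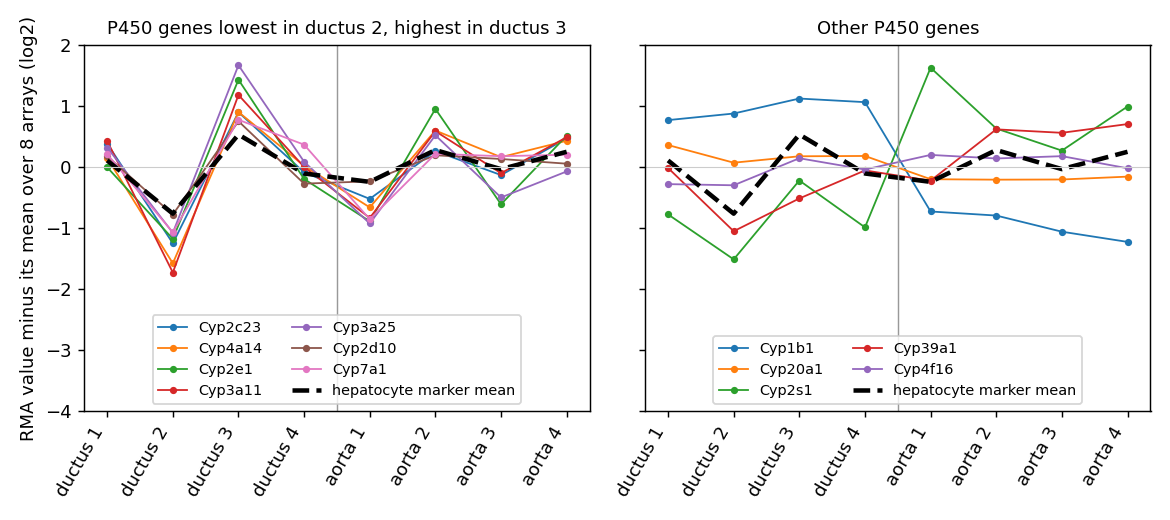
Log2 signal minus its mean over the 8 arrays, ductus arrays left of aorta arrays, with a line per gene. Left, the 7 P450 genes picked because they are lowest on ductus array 2 and highest on ductus array 3. Right, 5 other P450 genes. The dashed black line in both is the hepatocyte marker mean, which is 10.39 on ductus array 2 and 11.68 on ductus array 3 before centring, and none of the 5 genes on the right has both extremes on these arrays.

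Cyp3a13, the member proposed as an oxygen sensor of the ductus, lay below the median of all values. It had 4.30, 2.52, 5.19 and 3.60 in the ductus and 3.19, 4.38, 3.59 and 4.18 in the aorta. Both the lowest and the highest array were ductus pools, again 2 and 3, and the difference was 0.07 ± 0.507 (limma adjusted p = 0.966). With a standard error of this size, a moderate difference in either direction could not have been detected. With the hepatocyte marker mean as a covariate, which has its extremes on the same arrays as this gene, it was 0.32 ± 0.111 (adjusted p = 0.170).

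The promoter windows of all 50 matched members were also searched for CAAAGTCCA, a motif of the kind bound by the hepatocyte factor HNF4A. The motif was picked with the values known. It occurred on either strand in 0.475% of all promoter windows. Among the 57 windows of members it was in 6, which belong to 6 of the 50 members with a window (12%). The percentages over all promoters count windows, and those of members count genes. The sites are shown with the motif in capitals and 15 bases on each side (RefSeq, GRCm38.p6, 5′ to 3′ along the gene). They lie at chr19:39060875-39060913 (plus strand) for Cyp2c65, chr19:39741155-39741193 (minus) for Cyp2c68, chr19:40187327-40187365 (minus) for Cyp2c70, chr5:145879940-145879978 (minus) for Cyp3a11, chr5:145469799-145469837 (minus) for Cyp3a16 and chr9:121916349-121916387 (minus) for Cyp8b1.
Cyp2c65: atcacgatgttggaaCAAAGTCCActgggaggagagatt
Cyp2c68: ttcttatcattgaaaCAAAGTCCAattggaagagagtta
Cyp2c70: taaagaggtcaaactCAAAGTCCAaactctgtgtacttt
Cyp3a11: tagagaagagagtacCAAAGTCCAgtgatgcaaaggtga
Cyp3a16: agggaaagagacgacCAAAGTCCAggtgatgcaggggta
Cyp8b1: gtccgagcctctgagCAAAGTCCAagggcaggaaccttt
The Cyp2c sites and the Cyp3a sites stand in genes of common descent, so they are not separate occurrences. Of these genes, Cyp2c68, Cyp2c70 and Cyp3a11 had signals above the median, and Cyp2c65 lay below every first quartile. Of the 7 genes lowest on ductus array 2 and highest on ductus array 3, windows were matched for Cyp2e1, Cyp3a11, Cyp3a25 and Cyp2d10, and among these Cyp3a11 alone held the motif. The shorter CAAAGTC, which the longer motif contains, was in 4.44% of all windows and in 14 of the 57 member windows (13 members, 26%). TATAAA was in 13.6% of all windows and in 20 member windows (20 members, 40%). GTTAAT, part of the motif of the hepatocyte factor HNF1, was in 7.10% of all windows and in 3 member windows (3 members, 6%). Hnf4a itself had 8.64, 7.81, 9.23 and 8.42 in the ductus and 8.28, 8.79, 8.28 and 9.03 in the aorta, lowest and highest on the same arrays as the hepatocyte markers.

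The CYP4 family hydroxylates the ends of fatty acids and eicosanoids. Cyp4a14, a target of the lipid receptor PPAR alpha, had 7.80, 6.08, 8.56 and 7.68 in the ductus and 7.00, 8.25, 7.82 and 8.08 in the aorta, a difference of -0.26 ± 0.478. Cyp4v3, whose human counterpart is mutated in a crystalline retinal dystrophy, had 5.83, 5.04, 6.01 and 5.82 in the ductus and 6.28, 6.24, 6.15 and 6.48 in the aorta. Every ductus value was below every aorta value, and the difference of -0.61 ± 0.201 did not pass (limma adjusted p = 0.156). Its other probe set differed by -0.93 and passed when it represented the gene (adjusted p = 0.0189), as did the mean of both (adjusted p = 0.0321). Cyp4f16 had 5.87, 5.85, 6.29 and 6.11 in the ductus and 6.35, 6.29, 6.33 and 6.13 in aorta pools (-0.24 ± 0.126, adjusted p = 0.391). Cyp4b1, a lung enzyme that activates foreign compounds, averaged 4.75 ± 0.496 in the ductus and 4.33 ± 0.771 in the aorta.

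Of the 5 members that handle cholesterol and bile acids, 0 were called. Cyp39a1, a hydroxylase of oxysterols in bile acid synthesis, had 7.84, 6.80, 7.34 and 7.80 in the ductus and 7.63, 8.47, 8.41 and 8.55 in the aorta. The tissues overlapped through aorta pool 1, and the difference was -0.82 ± 0.272 (adjusted p = 0.157), the largest among members that did not pass. Cyp7a1, the rate-limiting enzyme of bile acid synthesis, averaged 4.66 ± 0.795 in the ductus and 4.53 ± 0.527 in the aorta. Cyp7b1, of the alternative route, averaged 5.43 ± 0.360 in the ductus and 5.09 ± 0.262 in the aorta. Cyp8b1, which sets the amount of cholic acid, averaged 4.11 ± 0.785 in the ductus and 3.97 ± 0.511 in aorta pools, and the brain cholesterol hydroxylase Cyp46a1 averaged 3.29 ± 0.496 in ductus pools and 3.07 ± 0.424 in aorta pools.

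Vitamin D is activated by Cyp2r1 and Cyp27b1 and broken down by Cyp24a1, and of these 3 and Cyp27a1, 0 of 4 were called. Cyp2r1 had 4.30, 4.37, 3.95 and 4.05 in the ductus and 3.82, 3.86, 2.98 and 3.83 in the aorta, without overlap (0.55 ± 0.208, adjusted p = 0.225). Cyp27b1 averaged 3.07 ± 0.143 in the ductus and 2.71 ± 0.205 in aorta pools (adjusted p = 0.211). Cyp24a1 averaged 2.83 ± 0.234 in the ductus and 2.88 ± 0.121 in the aorta, near the first quartile. Cyp27a1, a mitochondrial sterol hydroxylase, averaged 4.91 ± 0.363 in the ductus and 5.30 ± 0.455 in the aorta. Among 10 measured partners of steroid and vitamin D metabolism, the vitamin D receptor Vdr was the 1 gene called. It had 4.91, 4.91, 5.12 and 4.95 in the ductus and 6.02, 5.73, 5.21 and 5.94 in the aorta. It was lower in the ductus by -0.75 ± 0.173 (adjusted p = 0.0450). This call was lost on leaving out any single array except aorta replicate 3, with adjusted p from 0.0702 to 0.117. It was also lost with the mean over probe sets, where the difference was -0.47 (adjusted p = 0.0521), with array weights (0.0537), with a trend and robust prior (0.0574), with the hepatocyte covariate (0.0605) and without ductus replicates 2 and 3 together (0.198).

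Steroid hormone enzymes gave 0 calls among 5 measured members. Cyp21a1, an adrenal hydroxylase of progestins, was above the median, with 5.65 ± 0.239 in the ductus and 5.46 ± 0.296 in the aorta. Its other probe set was not, with a mean of 2.66. The side-chain cleavage enzyme Cyp11a1 averaged 3.05 ± 0.062 in the ductus and 3.05 ± 0.201 in the aorta. Cyp11b1, Cyp11b2 and Cyp17a1 lay below every first quartile in their mean over the arrays. Adrenal cortex markers, a list that includes Cyp11a1 and Cyp11b1 themselves, averaged 3.35 to 3.58 in the ductus and 3.57 to 3.74 in the aorta. Within it, Hsd3b1 (mean 6.12) and Star (4.67) lay above the median of all values, and Nr5a1 (2.82) and Mc2r (2.45) below it. Cyp26a1, which breaks down retinoic acid, had 3.24, 2.94, 2.81 and 4.71 in the ductus and 2.80, 2.65, 2.74 and 2.74 in the aorta. Its difference of 0.69 ± 0.359 rested mostly on ductus pool 4 and did not pass (adjusted p = 0.390). Cyp2f2, a marker of airway club cells, averaged 3.34 ± 0.768 in the ductus and 2.67 ± 0.288 in aorta pools (0.67 ± 0.338, adjusted p = 0.370). Airway markers averaged 5.42 to 6.32 in the ductus and 3.73 to 4.95 in the aorta, with 3 of 8 called higher in the ductus, and their part in Cyp2f2 was not tested.

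Cyp20a1, an orphan P450 with no settled substrate, had the second highest signal of the family and a narrow spread. It had 10.24, 9.95, 10.05 and 10.06 in the ductus and 9.68, 9.67, 9.67 and 9.72 in the aorta, without overlap. The difference of 0.39 ± 0.0985 missed the threshold (adjusted p = 0.0658), and it passed with genes above the median only (adjusted p = 0.0466) and with a variance prior that follows the signal level (adjusted p = 0.0247). Its other probe sets differed by 0.26 and 0.07.

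The genes that supply P450 enzymes with electrons and haem gave 0 calls among 13 measured, and the largest absolute difference was 0.23. Cyb5a, the cytochrome that passes a further electron to some P450 enzymes, averaged 8.78 ± 0.285 in the ductus and 8.55 ± 0.127 in aorta pools (adjusted p = 0.522). Pgrmc2, a haem-binding membrane protein, averaged 9.63 ± 0.154 in the ductus and 9.85 ± 0.231 in aorta pools (adjusted p = 0.492). A list of 6 nuclear receptors that regulate P450 genes (Nr1i2, Nr1i3, Ppara, Hnf4a, Nr1h4 and Nr1h3) gave 0 calls. Nr1i2, the drug-sensing pregnane X receptor, averaged 2.49 ± 0.137 in the ductus and 2.80 ± 0.231 in aorta pools, and Nr1i3, the constitutive androstane receptor, 2.89 ± 0.220 in the ductus and 3.12 ± 0.255 in the aorta. Over all arrays Nr1i2 (mean 2.64) lay below every first quartile, and Nr1i3 (3.01) lay a little above them. Of 3 P450 genes whose symbols fall outside the selection, 0 were called. The prostacyclin synthase Ptgis averaged 10.23 ± 0.128 in the ductus and 10.34 ± 0.165 in the aorta. The thromboxane synthase Tbxas1 differed by -0.27 (adjusted p = 0.325) and the sterol demethylase Cyp51 by 0.23 (adjusted p = 0.338).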

How the data were processed

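Total RNA of 4 ductus and 4 aorta litter pools was measured on Affymetrix arrays. The deposited values are log2 signals. Partek 6.6 and RMA appear in the submitters' processing notes (RMA is background correction, quantile normalization and probe set summary). Their settings are not given in the sources used. Such normalization makes array distributions alike and can compress differences of low signals. The number of arrays limits the precision. P-values set each difference against the spread between pools, with the variance of a gene drawn towards a value common to all genes.

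Of 45101 probe sets, 64 controls, 9160 without a symbol and 932 with several symbols were left out. The other 34945 gave 18193 genes, 9010 of them with several probe sets. Of the 34945, 34741 were matched to the reference gene table and 204 kept the platform symbol. Tests used limma 3.58.1 under R 4.3.3, by lmFit then eBayes (two-sided, no covariate), with Benjamini-Hochberg adjustment over all genes and no low-value filter. The limma step was tested on simulated data. Named genes were the called members, those above the median, the 5 largest uncalled differences, Cyp3a13, the members of function lists, and per pathway list the called genes or the 2 with the smallest p. Cyp2g1, Cyp3a16, Ahr, Ptgis, Ephx2 and Hnf4a were named beyond this rule, after their values were seen. Members and lists were chosen with earlier results of these data known, and the promoter motifs after the values were seen. Promoters were matched by symbol for 50 of 71 members. Same-numbered pools did not deviate together (correlations -0.23 to -0.07), so the main fit did not use the numbers as pairs. Only the replicate block, an alternative, did so. Differently numbered pools gave correlations from -0.25 to 0.34. Values were centred within each tissue, so the correlations of a ductus pool with the aorta pools cannot all be negative. Each ductus pool had its highest correlation with a different aorta pool. These were ductus 1 with aorta 4 (0.34) and ductus 2 with aorta 1 (0.19). The others were ductus 3 with aorta 2 (0.29) and ductus 4 with aorta 3 (0.28). Whether such pools shared litters under other numbers, or a like cell content, was not tested. The main fit treated all pools as independent.

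Alternatives covered scaling, the low-value filter, array weights, how a probe set was chosen, a replicate block, the variance prior and leaving out arrays.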

Additional observations from a re-analysis of the deposited data

Results flagged for a closer look

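In each tissue, the arrays were searched for a pool far from the other 3 by Dixon's test, which flags about 1 in 20 groups by chance. This found 7 of 100 groups, and no explanation was weighed.

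Cyp20a1 was 9.72 on aorta array 4, against 9.67 to 9.68 on the other 3, a gap that is small in absolute terms. Cyp39a1 was 7.63 on aorta array 1, against 8.41 to 8.55 on the others, and this is the pool through which the tissues overlap. Cyp7a1 was 3.74 on aorta array 1, against 4.77 to 4.81. Cyp8b1 was 4.73 on aorta array 2, against 3.62 to 3.81. Cyp2r1 was 2.98 on aorta array 3, against 3.82 to 3.86. Vdr was 5.12 on ductus array 3, against 4.91 to 4.95. The mean of the skeletal muscle markers was 6.32 on ductus array 3, against 4.05 to 4.40 on the other ductus arrays.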

How the results depend on the processing

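Cyp1b1 passed in 18 of 18 alternatives (difference 1.71 to 2.82, adjusted p 3.49e-06 to 0.00580), and Cyp2s1 in 14 of 18 (adjusted p 0.00643 to 0.0576). The members called higher in the ductus became 2 with genes above the median only, with a trend and robust prior, and with the hepatocyte covariate. Those called lower became 0 with the replicate block, 2 with each gene's most variable probe set by interquartile range, 2 with the mean over probe sets, 0 without ductus replicates 2 and 3 together (an alternative chosen after seeing the data), and 0 to 1 on leaving out single arrays. Over all genes, 208 were higher and 195 lower in the ductus with the replicate block, and 162 and 108 without ductus replicates 2 and 3, against 328 and 374. On leaving out single arrays the lower count was 201 to 419. Pathway genes called lower were 0 with the block, 1 with the mean over probe sets, 1 with array weights, 0 without ductus replicates 2 and 3, and 1 to 2 on leaving out single arrays. Under the block Cyp2s1 (adjusted p = 0.0509), Ephx1 (0.0771) and Vdr (0.143) lost their call. The cause of these changes was not tested. Over 38 named genes and 670 values, 646 kept their side of the threshold, 19 lost a call, 5 gained one and 0 called values reversed, while 55 uncalled values changed sign. The members above the median numbered 16 when the median was taken over genes, and 18 to 23 otherwise. The median difference of members was -0.10 to 0.02 on leaving out single arrays. Low signals and 4 arrays a tissue limit what can be detected.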
